A study of Mus musculus with 6 samples.

Results

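The genes of glucose and glycogen handling and of their control by insulin and glucagon were followed in mouse liver as a set of 39 genes, out of 18004 genes measured on the arrays. A gene entered through any non-control probe whose accession maps to its symbol. The set falls into 6 branches: gluconeogenesis with 5 genes, liver control of glycolysis with 5, the shared glycolysis chain with 9, hexose transport and fructose entry with 3, glycogen with 10 and hormone control with 7. The livers came from 3 C57Bl/6 mice without Itpr2 (KO) and 3 C57Bl/6 wild-type mice (WT). All 6 animals were 23 months old, belonged to a survival cohort, ate standard chow and received no treatment. Itpr2 encodes the type 2 inositol trisphosphate receptor, a calcium channel of the endoplasmic reticulum. The labels name neither a tissue-restricted deletion nor the deleted exons, and do not give the sex, the hour of collection or the feeding state.

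The liver stores glucose as glycogen after meals and releases glucose between meals, from glycogen and by gluconeogenesis. Insulin acts through its receptor and the insulin receptor substrates and keeps the transcription factor FOXO1 out of the nucleus. Glucagon acts through a G protein-coupled receptor and cyclic AMP, and drives gluconeogenic genes with the coactivator CRTC2. Calcium enters this circuit at phosphorylase kinase, which binds calcium and switches on glycogen phosphorylase. Inositol trisphosphate receptors of hepatocytes release calcium in response to hormones.

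Each array carried 44397 spots, 57.37% to 59.45% of the probes on an array were well above background, and no spot was saturated. All 39 genes were measured and were well above background on all 6 arrays, as were 17044 of the 18004 genes. A level is the log2 signal of a gene's brightest probe minus the array's 75th percentile, and a change is the KO mean minus the WT mean of these levels. Levels of different genes come from different probes and are not set against each other. Itpr2 itself had levels of 2.54, 2.38 and 2.20 in KO livers, against 3.04, 3.07 and 3.08 in WT livers. Its change was -0.69 ± 0.13 (SE), lower on every KO array, with an adjusted p of 0.813 in limma. Since the missing exons are not named, its probe may or may not lie within them. Hepatocyte markers were well above background on all 6 arrays. Markers of striated muscle stood apart on KO 3 and WT 1: all 20 were above background there, with summed linear levels of 175 and 158, against 6 of 20 and sums of 0.732 to 1.12 on the 4 other arrays. The arrays sat on 2 slides, KO 1 with WT 1 and WT 2 on slide 1, and KO 2 and KO 3 with WT 3 on slide 2. A value within a slide therefore rests on a single KO array (slide 1) or a single WT array (slide 2).

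No gene of the set passed limma's test after adjustment over all genes. Adjusted p ran over 0.813 to 0.998, and among all 18004 genes the test called 1, which is 0.00555%. That gene was Mansc4, no member of the set, named here after its value was seen. At an unadjusted p under 0.05, 3 of 39 genes (7.69%) stood out, with Insr higher in KO livers and Slc2a1 and Ppp1r3b lower. The same limit took 6.12% of all genes, 3.45% higher and 2.66% lower, so the share in the set was near that background. The KO and WT levels did not overlap for 5 of 39 genes (12.8%), against 12% of all genes in either direction. These 5 were Insr, Crtc2 and Tpi1, higher in KO livers (all genes 6.89%), and Slc2a1 and Ppp1r3b, lower (all genes 5.14%). For each of the 5, an exact two-sided permutation test over the arrays gave p = 0.1, and 3 against 3 cannot give a smaller one. The KO mean was the higher one for 18 of 39 genes (46.2%), against 54.1% of all genes. The median change was -0.03 over the set and 0.02 over all genes.

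**Figure D1:**
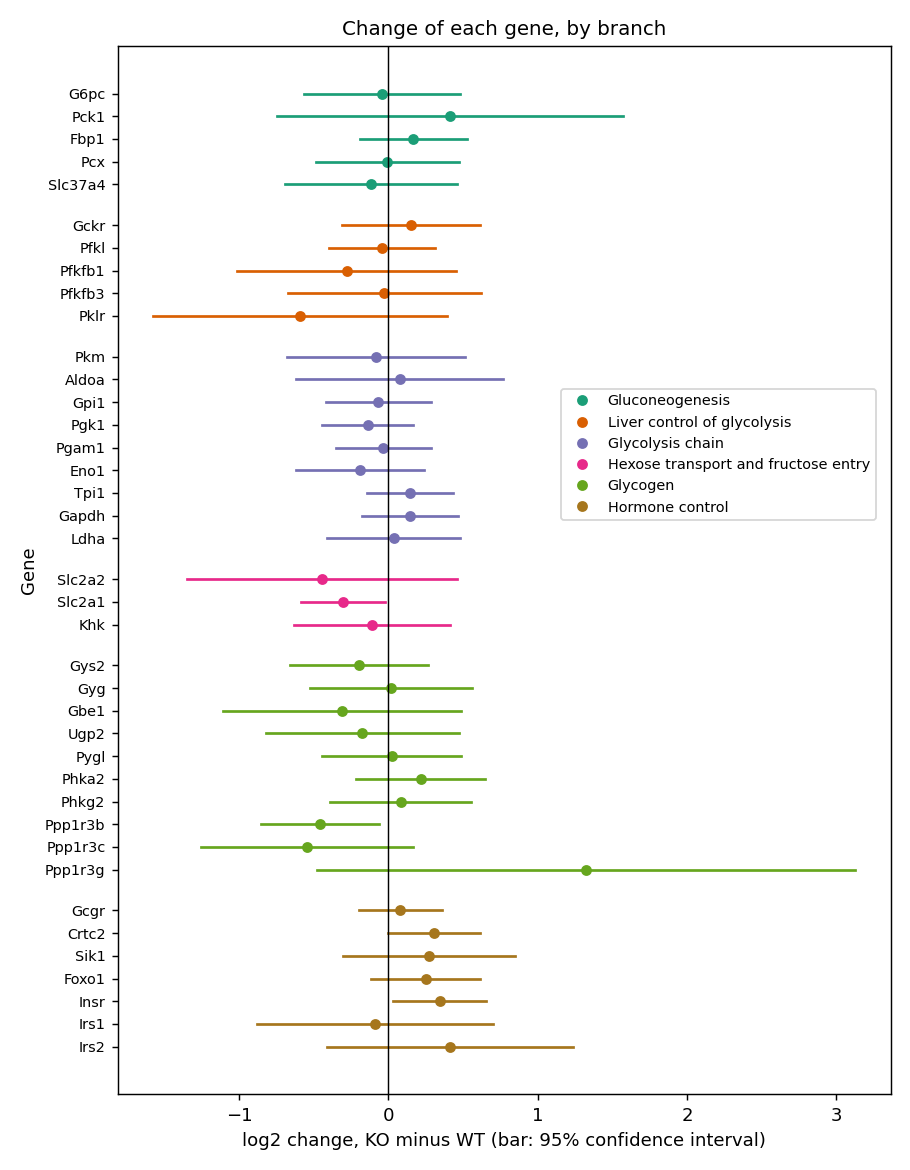
Log2 change (KO minus WT) of each of the 39 genes on the horizontal axis, with 95% confidence intervals from limma as bars and colours for the 6 branches. The intervals of Insr, Slc2a1 and Ppp1r3b leave out 0 before adjustment, and the widest interval is that of Ppp1r3g.

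The spread between animals of a genotype was larger than most of the changes. The median SD within a genotype was 0.252 in the set and 0.23 over all genes. The median absolute change was 0.152 in the set and 0.157 over all genes, below that spread in both. Of the 39 changes, 14 were larger than 0.25 in either direction. The slides often differed in direction: 15 of 39 genes had the same direction within both slides (38.5%, against 51.2% of all genes). Another 18 were lower in KO on slide 1 and higher on slide 2, and 6 the reverse. The arrays with striated muscle markers were WT 1 on slide 1 and KO 3 on slide 2. The median change of the measured muscle markers was -2.1 on slide 1 and 2.03 on slide 2. Slide and muscle RNA cannot be told apart in this comparison, and the part of either was not tested. KO 1 was the lowest of the 6 arrays for 10 of the 39 genes, and KO 3 the highest for 11. In such bulk tissue, fewer cells of a type and less RNA per cell cannot be told apart.

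**Figure D2:**
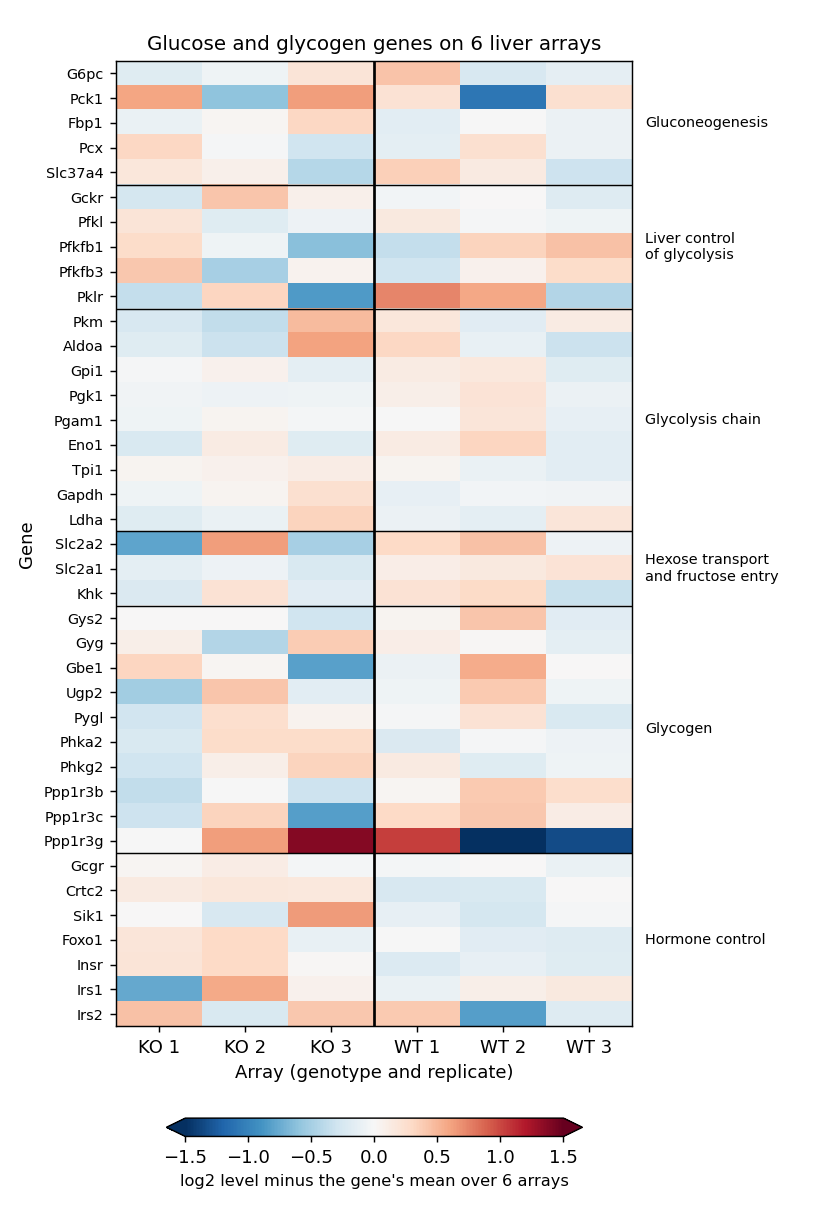
Level of each gene on each array minus its mean over the 6 arrays, on a log2 scale from blue (lower) to red (higher), with KO arrays on the left, WT arrays on the right and branches from top to bottom. Rows such as Pck1, Slc2a2 and Ppp1r3g differ as much between animals of a genotype as between genotypes, while Insr, Crtc2 and Slc2a1 split at the line between the genotypes.

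Hormone control was the branch with the largest share of higher means, 6 of 7 genes, and had a median change of 0.27. It was the only branch whose median lay above 0, and the median was 0.27 on slide 1 and 0.22 on slide 2. Over all genes 54.1% of means were higher and the median was 0.02. Of the 7, none passed the adjusted test, Insr alone had an unadjusted p under 0.05 (6.12% of all genes), and Insr and Crtc2 had no overlap between genotypes (12% of all genes). KO 2 was the highest of the 6 arrays for 5 of the 7 genes. Without KO 2 the branch median was 0.28, with 6 of 7 means higher. With normexp background correction 5 of 7 means were higher. With arrays centred on their median the branch median was 0.19, and the median of all genes moved to -0.06. Of 13 measured hepatocyte markers, 12 had a higher KO mean, with a median change of 0.19 over all arrays, -0.02 on slide 1 (7 of 13 lower) and 0.19 on slide 2. Among them, Cps1 had an unadjusted p under 0.05 (change 0.49 ± 0.18). Summed linear levels of these markers were 2130 to 3010 in KO livers and 2060 to 2380 in WT livers, and their part in the branch's values was not tested.

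Insr, the insulin receptor, had levels of 0.67, 0.78 and 0.50 in KO livers, against 0.27, 0.35 and 0.30 in WT livers. Every KO array lay above every WT array. The means were 0.65 ± 0.14 in KO and 0.31 ± 0.04 in WT (SD, n = 3 each), a 1.27-fold higher signal in KO. The change was 0.34 ± 0.13 (SE), with a 95% interval of 0.03 to 0.65, an unadjusted p of 0.0343 and an adjusted p of 0.813 in limma. It was 0.36 within slide 1 and 0.34 within slide 2. The unadjusted p was under 0.05 in 8 of 18 settings of the test, and ran over 0.014 to 0.243. Most of these settings reuse the same 6 arrays, so they are not independent tests. Among the settings that left arrays out, this p was under 0.05 only without KO 3. A second Insr probe gave no overlap either, at -0.79, -0.71 and -0.91 in KO livers, against -1.25, -1.09 and -1.15 in WT livers. On the dimmest Insr probe the genotypes overlapped and the change was 0.17.

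Crtc2, the cyclic AMP-regulated coactivator of gluconeogenic genes, had levels of 1.15, 1.19 and 1.18 in KO livers, against 0.78, 0.79 and 1.03 in WT livers. All KO arrays were above all WT arrays, by the least against WT 3. The change was 0.30 ± 0.13 with an unadjusted p of 0.052 in limma, 0.36 within slide 1 and 0.15 within slide 2. Its other probe also had a change of 0.30, but there the genotypes overlapped, with KO 3 at -3.0 just below WT 3 at -2.99.

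Irs2, the insulin receptor substrate known to be induced by fasting in liver, had the largest change of the branch. Its levels were 3.13, 2.47 and 3.1 in KO livers, against 3.09, 1.87 and 2.5 in WT livers. The genotypes overlapped, since WT 1 lay just below the upper KO arrays, and the change of 0.41 ± 0.34 was about the size of its error. Without WT 2 it was 0.11, and without WT 1 it was 0.71. Irs1, the other main substrate, was the gene of the branch with a lower KO mean: 0.56, 1.89 and 1.39 in KO livers, against 1.22, 1.41 and 1.47 in WT livers. KO 1 was the lowest array and KO 2 the highest, and the change of -0.09 ± 0.33 was -0.76 on slide 1 and 0.17 on slide 2.

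Foxo1, the transcription factor that insulin signalling restrains, had levels of 2.04, 2.16 and 1.75 in KO livers, against 1.85, 1.69 and 1.66 in WT livers. KO 3 lay below WT 1, and the change was 0.25 ± 0.15. On a second Foxo1 probe, with a change of 0.30, every KO array was above every WT array. Gcgr, the glucagon receptor, was nearly level: 5.86, 5.94 and 5.80 in KO livers, against 5.79, 5.83 and 5.73 in WT livers, a change of 0.08 ± 0.12. Sik1, a cyclic AMP-induced kinase that restrains CRTC2, had a change of 0.27 ± 0.24. Its levels were -0.54, -0.78 and 0.10 in KO livers, against -0.67, -0.80 and -0.56 in WT livers, with KO 3 above all others. Without KO 3 the change was 0.02.

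**Figure D3:**
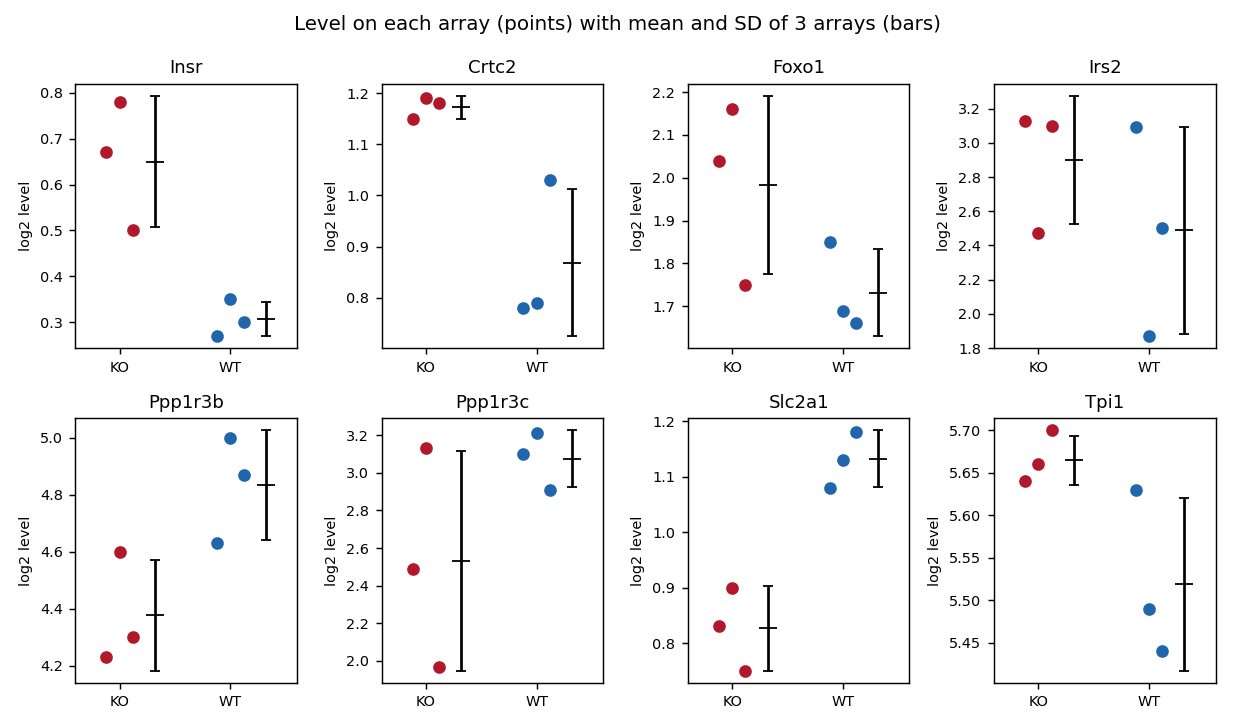
Log2 level of 8 genes on each array, with KO points in red on the left of each panel, WT points in blue on the right, and bars for the mean and SD of 3 arrays; each panel has its own vertical scale, which does not start at 0. Points do not overlap for Insr, Crtc2, Tpi1, Slc2a1 and Ppp1r3b, and overlap for Foxo1, Irs2 and Ppp1r3c.

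The gluconeogenic enzymes stayed near 0 as a branch, with a median change of -0.01 and 2 of 5 means higher in KO livers. None had an unadjusted p under 0.05 and none was without overlap. Pck1, cytosolic phosphoenolpyruvate carboxykinase, varied most: 6.86, 5.67 and 6.90 in KO livers, against 6.49, 5.18 and 6.51 in WT livers. Both genotypes had a low animal, KO 2 and WT 2, and the change of 0.42 ± 0.48 (95% interval -0.74 to 1.58) was 1.03 on slide 1 and -0.23 on slide 2. With the replicate number as a block in limma, the unadjusted p of Pck1 was 0.0338, against 0.42 without it. The adjusted p with that block was 0.771, and no label says that the numbers are pairs. G6pc, the catalytic subunit of glucose-6-phosphatase, had levels of 4.82, 4.94 and 5.20 in KO livers, against 5.44, 4.77 and 4.87 in WT livers. These levels overlapped, and the change was -0.04 ± 0.22 with an interval of -0.57 to 0.48. Fbp1, fructose-1,6-bisphosphatase, had levels of 7.82, 7.95 and 8.23 in KO livers, against 7.76, 7.91 and 7.83 in WT livers. KO 3 stood highest, and the change was 0.17 ± 0.15. Pcx, the mitochondrial pyruvate carboxylase, and Slc37a4, the glucose-6-phosphate carrier of the endoplasmic reticulum, had changes of -0.01 ± 0.20 and -0.12 ± 0.24.

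The promoters of Pck1 and G6pc are shown because both genes are textbook targets of glucagon and insulin, and because the Pck1 level differed so much between animals. Each window is the 250 bases before the gene's start from RefSeq on the GRCm38.p6 build, written 5′ to 3′ on the gene's plus strand. Capitals mark CGTCA, the reverse complement of TGACG, the core of the cyclic AMP response element. Pck1 lies at chr2:173152823-173153072 and G6pc at chr11:101367466-101367715.
Pck1: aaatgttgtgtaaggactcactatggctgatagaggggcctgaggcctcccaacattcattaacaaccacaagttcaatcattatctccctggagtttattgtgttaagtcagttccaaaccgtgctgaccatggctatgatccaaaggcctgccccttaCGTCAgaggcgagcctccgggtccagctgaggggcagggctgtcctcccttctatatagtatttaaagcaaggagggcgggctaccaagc
G6pc: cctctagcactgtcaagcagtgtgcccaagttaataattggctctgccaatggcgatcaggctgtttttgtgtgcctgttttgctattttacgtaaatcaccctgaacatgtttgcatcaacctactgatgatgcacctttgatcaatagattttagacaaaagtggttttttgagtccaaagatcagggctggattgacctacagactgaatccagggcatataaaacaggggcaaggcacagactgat
The Pck1 window holds 1 core, at position -90 from the start, and the G6pc window holds none. Searched on both strands, TGACG was found in 11 of 49 windows of the set (22.4%), from 8 of the 34 genes that matched the promoter table, against 17.8% of all 32851 windows. Those genes were Irs1, Khk, Ldha, Pck1, Pfkfb3, Ppp1r3g, Pygl and Slc37a4. The full element TGACGTCA, which contains the core, was found in 1 of 49 windows (Ldha), against 1.55% of all windows. The FOXO core GTAAACA was found in none of the 49, against 3.17% of all windows. A letter match is a description of the window and shows no binding. Only exact letters were searched, so a window without a match may still hold a variant of the element.

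The genes by which liver sets its glycolytic rate had a median change of -0.04, with 1 of 5 means higher in KO livers. No gene passed either test limit, and the branch median was 0.13 on slide 1 and -0.06 on slide 2. Pklr, the liver pyruvate kinase, had the largest change: -0.45, 0.23 and -0.95 in KO livers, against 0.64, 0.49 and -0.53 in WT livers. KO 1 and KO 2 lay inside the WT range and KO 3 below it, and the change of -0.59 ± 0.41 was -1.01 on slide 1 and 0.17 on slide 2. Gckr, a nuclear inhibitor of glucose phosphorylation in liver, had levels of 5.72, 6.39 and 6.05 in KO livers, against 5.94, 5.98 and 5.79 in WT livers. The KO levels spread over both sides of the WT levels, with a change of 0.15 ± 0.19. Pfkfb1, the liver enzyme that makes and removes fructose-2,6-bisphosphate, had a change of -0.28 ± 0.31, of opposite sign on the slides (0.29 on slide 1 and -0.79 on slide 2). Pfkfb3, its inducible relative, and Pfkl, the liver phosphofructokinase, had changes of -0.03 ± 0.27 and -0.04 ± 0.15.

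The 9 enzymes of the common glycolysis chain lay within -0.19 to 0.15, with 4 of 9 means higher in KO livers and a median of -0.03. Tpi1, triose phosphate isomerase, was the gene of the chain without overlap, at 5.64, 5.66 and 5.70 in KO livers, against 5.63, 5.49 and 5.44 in WT livers. WT 1 lay just below the lowest KO array, and the change was 0.15 ± 0.12 with an unadjusted p of 0.265 in limma. Its other probe had a change of 0.01. Eno1, enolase, had the largest change, -0.19 ± 0.18, with 4.96, 5.32 and 5.01 in KO livers, against 5.32, 5.52 and 5.03 in WT livers. It was -0.45 on slide 1 and 0.13 on slide 2, and the levels overlapped. Gapdh, the glyceraldehyde-3-phosphate dehydrogenase often used as a reference gene, had levels of 7.46, 7.57 and 7.77 in KO livers, against 7.40, 7.49 and 7.48 in WT livers. The change of its brightest probe was 0.14 ± 0.13, while its 6 other probes lay at -0.18 to -0.03. Gapdh has near-identical processed copies in the genome, so its probes are uncertain. Ldha, lactate dehydrogenase A, had a change of 0.03 ± 0.18 on its brightest probe and -0.18 on each of its other probes. Gpi1, Pgk1 and Pgam1, which carry out the isomerase, kinase and mutase steps, had changes of -0.07 ± 0.15, -0.14 ± 0.13 and -0.03 ± 0.13.

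**Figure D4:**
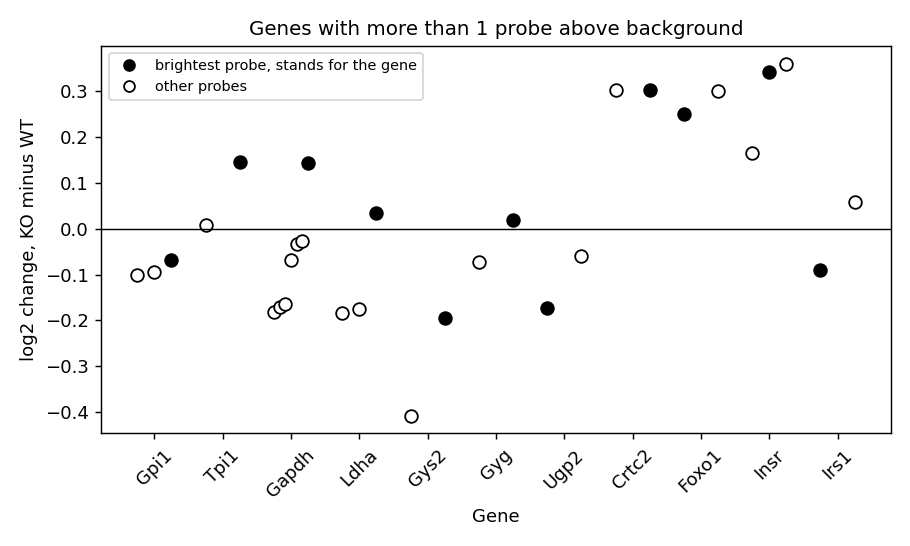
Log2 change (KO minus WT) of every probe above background for the 11 genes that had more than 1, with the brightest probe filled and the others open. For 7 of the 11 genes the probes lie on one side of 0, and for Gapdh, Ldha, Gyg and Irs1 they do not.

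Pkm and Aldoa, the pyruvate kinase and aldolase that muscle uses, were among the 5 of 9 chain genes that stood highest on KO 3, a muscle-bearing array. KO 3 was also the highest array for 9 of 13 hepatocyte, 6 of 6 red cell and 5 of 15 leukocyte markers. Aldoa had levels of 4.92, 4.78 and 5.70 in KO livers, against 5.41, 4.99 and 4.78 in WT livers, with its top values on KO 3 and WT 1. Its change was 0.08 ± 0.29, and -0.03 without KO 3 and WT 1. Pkm had levels of 1.20, 1.07 and 1.91 in KO livers, against 1.61, 1.26 and 1.56 in WT livers. WT 3, not a muscle-bearing array, lay near WT 1. The change of Pkm was -0.08 ± 0.25, and -0.27 without KO 3 and WT 1. For leukocyte markers, levels minus each gene's mean over the 6 arrays had medians of 0.24, 0.32 and 0.40 on KO 3, WT 1 and WT 3. On the other arrays these medians were -0.70 to 0.03. The part of muscle or leukocyte RNA in these values and in the rest of the chain was not tested.

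Hexose entry had 3 of 3 means lower in KO livers, with a median change of -0.31. The median was -0.47 on slide 1 and 0.14 on slide 2, so the direction of the branch did not hold within both slides, and it was -0.16 without KO 1. Slc2a1, the widely expressed glucose transporter GLUT1, did keep its direction. It had levels of 0.83, 0.90 and 0.75 in KO livers, against 1.08, 1.13 and 1.18 in WT livers, with no overlap. The means were 0.83 ± 0.08 in KO and 1.13 ± 0.05 in WT (SD, n = 3 each), a 1.24-fold lower signal in KO. The change was -0.31 ± 0.12, with an interval of -0.59 to -0.02, an unadjusted p of 0.0375 and an adjusted p of 0.813 in limma. It was -0.28 on slide 1 and -0.36 on slide 2, and its unadjusted p was under 0.05 in 9 of 18 settings, over a range of 0.00421 to 0.13. Most settings share the same arrays, and where arrays were left out this p was under 0.05 only without KO 2. Leukocytes are known to express this transporter, and 12 of 15 leukocyte markers also had lower KO means, with a median change of -0.51 (-0.35 on slide 1 and -0.56 on slide 2). Of these, Laptm5 and Itgb2 had an unadjusted p under 0.05, each with a change of -0.63. The 3 markers with higher KO means were Cd79b, S100a8 and S100a9, with changes of 0.32, 0.88 and 0.96. Summed linear levels of the 15 markers were 48.7 to 122 in KO livers and 78.8 to 102 in WT livers. S100a9, at a level of 5.30, was the largest part of the KO 1 sum. Leukocyte marker levels minus each gene's mean over all arrays had medians of -0.15, -0.70 and 0.24 on KO 1, KO 2 and KO 3. On WT 1, WT 2 and WT 3 these medians were 0.32, 0.03 and 0.40. Among KO livers, KO 3 had the highest median and the lowest Slc2a1 level, and KO 2 the reverse. Among WT livers, WT 3 was the highest for both, while WT 2 had the lowest median and WT 1 the lowest Slc2a1 level. The part of leukocytes in the Slc2a1 value was not tested.

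Slc2a2, the hepatocyte glucose transporter GLUT2, had the largest change of the branch but a wide spread: 2.80, 4.21 and 3.09 in KO livers, against 3.89, 4.03 and 3.51 in WT livers. KO 2 was the highest of all arrays and the other KO arrays the lowest, giving -0.45 ± 0.38, with -1.17 on slide 1 and 0.14 on slide 2. Khk, ketohexokinase, which commits fructose to breakdown, had levels of 6.59, 7.02 and 6.64 in KO livers, against 7.02, 7.09 and 6.47 in WT livers. The genotypes overlapped, and the change of -0.11 ± 0.22 was -0.47 on slide 1 and 0.36 on slide 2.

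Of the 10 glycogen genes, 5 had higher and 5 lower means in KO livers, with a median change of -0.08. The branch median was -0.25 on slide 1 and 0.15 on slide 2, and KO 1 was the lowest array for 5 of the 10 genes. The targeting subunits that bring protein phosphatase 1 to glycogen, where it turns glycogen synthase on, had the largest changes. Ppp1r3b, the main subunit of this kind in liver, had levels of 4.23, 4.60 and 4.30 in KO livers, against 4.63, 5.0 and 4.87 in WT livers. KO 2 lay just below WT 1, and the ranges did not overlap. The means were 4.38 ± 0.19 in KO and 4.83 ± 0.19 in WT (SD, n = 3 each), a 1.37-fold lower signal in KO. The change was -0.46 ± 0.17, with an interval of -0.86 to -0.06, an unadjusted p of 0.0301 and an adjusted p of 0.813 in limma. It was -0.59 on slide 1 and -0.42 on slide 2, and its unadjusted p was under 0.05 in 12 of 18 settings, over a range of 0.0166 to 0.102. Most settings share the same arrays, and where arrays were left out this p was under 0.05 only without KO 2 or without WT 1. With the slide as a block in limma the unadjusted p of Ppp1r3b was 0.0357, while those of Insr and Slc2a1 were 0.0595 and 0.0599.

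Ppp1r3c, a second such subunit, had levels of 2.49, 3.13 and 1.97 in KO livers, against 3.1, 3.21 and 2.91 in WT livers. KO 2 lay within the WT range and the other KO arrays below it, and the change was -0.54 ± 0.29 with an unadjusted p of 0.111 in limma. Ppp1r3g, a subunit known from mouse liver to be induced by fasting, went the other way, with a change of 1.32 ± 0.75. Its levels were -2.64, -2.00 and -1.26 in KO livers, against -1.60, -4.32 and -3.97 in WT livers. WT 1 lay among the KO arrays, and the interval of -0.48 to 3.13 spanned 0. KO 3 and WT 1, the muscle-bearing arrays, stood highest. Leaving out single arrays gave 0.81 (without WT 2) to 2.17 (without WT 1), and leaving out KO 3 and WT 1 gave 1.82. The change was the largest of the 39 genes on this scale, but it was 0.31 on slide 1, 2.33 on slide 2 and 0.38 with normexp background correction, where other genes had larger changes.

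The enzymes that build glycogen had changes about the size of their errors or smaller on their brightest probes. Gys2, the liver glycogen synthase, had a change of -0.19 ± 0.19 on its brightest probe and -0.41 on the other. Its levels were 4.21, 4.22 and 3.91 in KO livers, against 4.25, 4.63 and 4.04 in WT livers, so KO 1 and KO 2 lay inside the WT range and KO 3 below it. Gbe1, the branching enzyme, had a change of -0.31 ± 0.33, Ugp2, which makes UDP-glucose, of -0.17 ± 0.27, and Gyg, the glycogenin primer, of 0.02 ± 0.23.

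On the breakdown side, Pygl, the liver glycogen phosphorylase, had levels of 5.93, 6.47 and 6.27 in KO livers, against 6.20, 6.43 and 5.98 in WT livers. The genotypes covered nearly the same range, and the change was 0.02 ± 0.19. Phosphorylase kinase, the calcium-sensitive enzyme upstream of it, had no subunit described here with an unadjusted p under 0.05 over the 6 arrays. Phka2, the liver alpha subunit, had levels of 1.16, 1.67 and 1.67 in KO livers, against 1.17, 1.37 and 1.31 in WT livers. KO 1 was level with the lowest WT array and the other KO arrays above all WT arrays, for a change of 0.22 ± 0.18 and an interval of -0.21 to 0.65. Without KO 1 it was 0.39, with an unadjusted p of 0.0298 in limma. Leaving out any other single array gave 0.13 to 0.26, and leaving out KO 3 and WT 1 gave 0.07. Within slides the Phka2 change was -0.11 on slide 1 and 0.35 on slide 2. Phkg2, the catalytic subunit of liver, had levels of 1.25, 1.63 and 1.88 in KO livers, against 1.68, 1.36 and 1.48 in WT livers. The KO arrays spread around the WT arrays, with a change of 0.08 ± 0.20 and an interval of -0.39 to 0.55. This change was -0.27 on slide 1 and 0.28 on slide 2. Phkb, the beta subunit, had levels of -2.11, -1.96 and -2.27 in KO livers, against -2.17, -2.13 and -2.18 in WT livers, a change of 0.05 ± 0.13. Phka1, the muscle alpha subunit, had levels of -0.69, -1.12 and -0.63 in KO livers, against -0.67, -0.70 and -0.92 in WT livers, a change of -0.05 ± 0.17.

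Beyond the set, 54 further genes of the same pathways were listed and 46 were measured. Of these, 29 had higher and 17 lower means in KO livers (63% higher), with a median change of 0.04, and none passed the adjusted test. At an unadjusted p under 0.05, 0 of 46 were higher and 3 of 46 lower, against 3.45% and 2.66% of all genes (6.12% in either direction). All 3 thus lay on the lower side, where the list had a larger share than all genes. Among the 45 genes without a missing value, the genotypes did not overlap for 3 on the higher and 3 on the lower side. The shares over all genes were 6.89% and 5.14%, so in overlap the list was near the background. Hk3, a hexokinase abundant in myeloid cells, had levels of -0.69, -1.65 and -1.10 in KO livers, against -0.21, -0.54 and 0.10 in WT livers, a change of -0.93 ± 0.29 that was not tested against the leukocyte markers. Nhlrc1, which encodes the ubiquitin ligase malin of glycogen quality control, had -0.95, -1.23 and -1.74 in KO livers, against -0.90, -0.57 and -0.82 in WT livers, a change of -0.54 ± 0.23. Prkaca, a catalytic subunit of protein kinase A, had -1.95, -1.96 and -2.10 in KO livers, against -1.82, -1.42 and -1.61 in WT livers, a change of -0.39 ± 0.15. In each of these 3 genes every KO array was below every WT array. Prkacb, another catalytic subunit of that kinase, had a change of 0.13 ± 0.16. The 3 listed genes without overlap in the other direction were Mlxipl, the carbohydrate response factor ChREBP (0.40 ± 0.19), Sik2 (0.31 ± 0.14) and the cyclic AMP response modulator Crem (0.20 ± 0.12).

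Genes that mark the fed or fasted state differed between animals of a genotype. Of 11 genes known to be induced in fasting, 4 had higher and 7 lower KO means, with a median change of -0.30. Among them, Cyp4a14, a fatty acid hydroxylase, had an unadjusted p under 0.05, at 5.67, 6.54 and 3.61 in KO livers, against 6.99, 7.32 and 6.87 in WT livers (change -1.78 ± 0.70). Of 10 lipogenic genes of the fed state, 3 had higher and 7 lower KO means, with a median of -0.26, and none had an unadjusted p under 0.05. Array WT 2, which had the lowest Pck1 and Irs2 levels of all arrays, had the highest level for 8 of the 10 lipogenic genes. Igfbp1, a liver-secreted binding protein that insulin represses, had levels of 6.95, 5.68 and 6.79 in KO livers, against 6.66, 4.83 and 5.44 in WT livers. Tat, the tyrosine aminotransferase induced by glucagon and glucocorticoids, had 6.11, 5.71 and 5.99 in KO livers, against 5.96, 5.41 and 5.48 in WT livers. For Igfbp1 and Tat, as for Pck1 and Irs2, KO 2 was the lowest KO array and WT 2 the lowest WT array. WT 3 set them apart, level with WT 1 for Pck1 and well below it for Igfbp1, Irs2 and Tat. Over the 11 fasting genes there was no such common order, with WT 2 the highest array for 5 and the lowest for 4. Igfbp1, Tat and the lipogenic and muscle genes plotted beside them were picked after their values were seen, and the likeness was not tested.

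**Figure D5:**
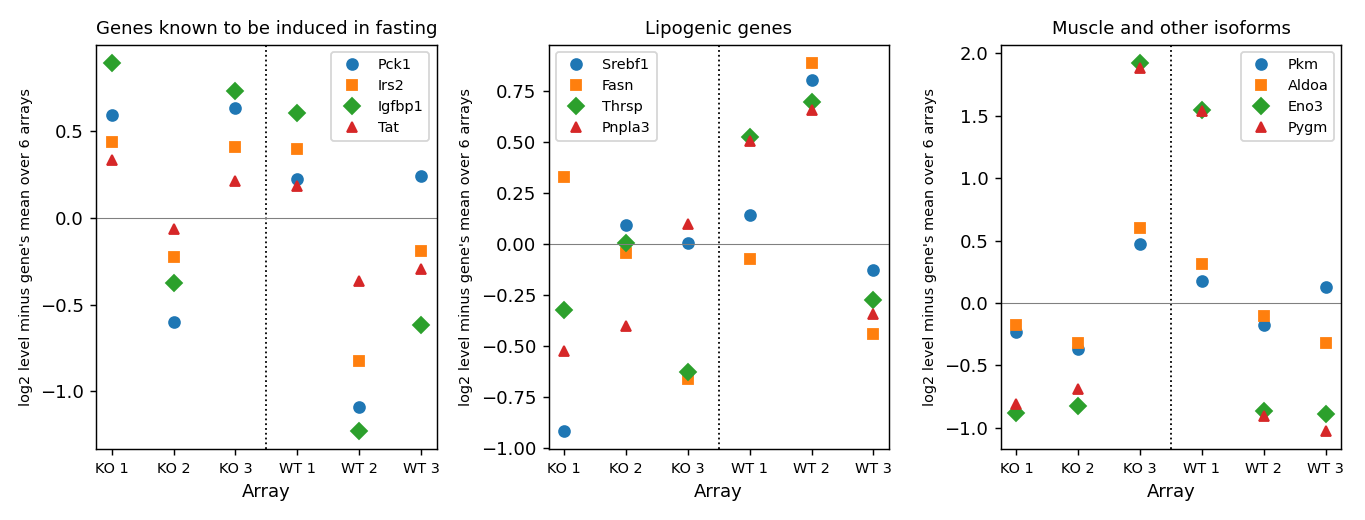
Log2 level minus each gene's mean over the 6 arrays, with KO arrays on the left of the dotted line and WT arrays on the right. Pck1, Irs2, Igfbp1 and Tat are lowest on WT 2 and lower on KO 2 than on the other KO arrays, Srebf1, Fasn, Thrsp and Pnpla3 are highest on WT 2, and Eno3, Pygm and Aldoa are highest on KO 3 and WT 1.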

How the data were processed

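Total RNA of 6 frozen livers was labelled with Cy3 and hybridised to 1-colour Agilent arrays, per the labels' protocols. The deposited scanner tables hold intensity values, background-subtracted but not scaled between arrays, made with Feature Extraction 11.5.1.1 per the file headers (10.7.3.1 per the submitters' processing notes). A table of log2 values for 20644 probes, deposited by the authors as well, served as an alternative. Compared with the scanner values, it held 75th-percentile-scaled log2 signals, centred for each probe, and more signal gave higher values. The medians of its columns named KO 1, KO 2 and KO 3 were -0.0127, 0.0106 and 0.00617, and those of WT 1, WT 2 and WT 3 were 0.00207, -0.0094 and 0.00497. Its KO 2 and KO 3 columns matched the scanner values of KO 3 and KO 2, so scanner tables name the arrays here.

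Control spots (1377 per array) and 818 outlier spots were left out, and spots of a probe were averaged. Levels were log2 of the processed intensity minus the array's 75th percentile. Of 39429 probes, 28324 had 1 symbol through RefSeq accessions (GRCm38.p6 table), none several and 11105 none. Probes well above background on all 3 arrays of a genotype (22311) were kept, and the brightest stood for its gene, leaving 18004 genes, 13678 of them with a symbol. The set had 60 probes, of which 58 were kept. KO and WT were compared with limma 3.58.1 in R 4.3.3 (lmFit, eBayes, two-sided, Benjamini-Hochberg over all genes, threshold 0.05), a step tested on simulated data. Overlap was counted over the 17894 genes without a missing value. The number of arrays limits the precision, and nothing in the labels pairs the animals. Same-numbered KO and WT arrays deviated from their group means with correlations of -0.191, 0.0425 and -0.28. The highest value between a KO and a WT array was 0.295, for the muscle-bearing KO 3 and WT 1. These values cannot tell shared muscle RNA from pairing, so they do not decide whether the numbers are pairs. The numbers were not taken as pairs because no label pairs the animals.

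The genes of the set and all lists were chosen with earlier results of these data known. Genes given array by array were those with an unadjusted p under 0.05, those without overlap, the largest change of each branch, the gene with the highest signal of each branch (a choice of what to show, not a comparison of levels), and phosphorylase kinase subunits, some of which are not reported here. Other members are given array by array where an array stood out. From the further lists, genes with an unadjusted p under 0.05 were named, with some others where their direction bears on a value given. Alternatives covered scaling, background correction, the authors' matrix, the filter, the probe rule, outlier spots, slide and replicate blocks, the variance prior and leaving out arrays. No promoter sequence was read for Ppp1r3b, Sik1, Gys2, Insr and Crtc2.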

Additional observations from a re-analysis of the deposited data

How the results depend on the processing

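No gene of the set passed the adjusted limma test under any of the 18 settings that allow a test, with a lowest adjusted p of 0.513 (without KO 1). Among all genes the count past the threshold was 1, and it was 0 with normexp on the median signal and quantile scaling, with the filter for all 6 arrays, with the replicate block, without the muscle-bearing arrays KO 3 and WT 1, and over 0 to 1 when arrays were left out singly (1 only without WT 3). At an unadjusted p under 0.05, the count of 3 in the set became 0 with arrays centred on their median or without WT 2, 1 with the slide as a block (Ppp1r3b), 1 without KO 1 (Phka2) or without the muscle-bearing arrays (Ppp1r3g), 2 with the mean of all probes (Insr lost) or without KO 3, WT 1 or WT 3, and 4 without KO 2 or, with Crtc2 added, under quantile scaling, normexp, and trend and robust priors, while the replicate block gave Pck1, Pklr and Ppp1r3b. The sign held under all 20 alternatives for Insr, Crtc2, Foxo1, Sik1, Irs2, Ppp1r3b, Ppp1r3c, Ppp1r3g, Slc2a1 and Tpi1, though Sik1 was at 0.02 without KO 3.

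The median change of the set was -0.11 with arrays centred on their median, -0.11 within slide 1 and 0.14 within slide 2 (28 of 39 means higher there), and -0.049 to 0.042 when arrays were left out singly. The hormone control median stayed above 0 throughout, at 0.19 with median centring, 0.20 with normexp, 0.22 within slide 2 and 0.21 to 0.33 when arrays were left out. The median for liver control of glycolysis was 0.13 within slide 1 and -0.24 to -0.017 when arrays were left out. That of the glycolysis chain was -0.15 within slide 1, 0.13 within slide 2 and -0.12 to 0.080 when arrays were left out. Within slide 2 the medians were 0.14 for gluconeogenesis, 0.14 for hexose entry and 0.15 for glycogen. Leaving out arrays singly gave -0.0495 to 0.13, -0.34 to -0.16 and -0.17 to 0.01 for gluconeogenesis, hexose entry and glycogen. The cause of these shifts was not tested. Median centring left 30.3% of the genes with an unadjusted p under 0.05 on the higher side, quantile scaling 48.4% and the 75th percentile 56.5%. With 3 animals a genotype, the median SE of a change was 0.196 in the set, which limits the differences that could be detected.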
